A study of Mus musculus with 4 samples.

Results

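Mitotic spindle and kinetochore genes were examined in EO771 cells, a mouse mammary carcinoma cell line, after exposure to extracellular A-FABP. The 48 genes were listed by name and cover kinesin motors, kinetochore proteins, the spindle checkpoint, mitotic kinases and the machinery of anaphase and cytokinesis. Each was represented by the only probe set whose platform annotation names that gene alone, so 48 of 22180 measured genes enter. A-FABP (Fabp4) binds fatty acids inside fat cells and macrophages and is also secreted. One group of 2 arrays came from cells given recombinant mouse A-FABP at 100 ng/ml, and the other group of 2 arrays came from cells given PBS. Both groups were the same line, grown for 24 hours to at least 70% confluence beforehand. No genotype differs between them, and the labels do not state how long exposure lasted. Their titles, their source names and the design text mark the PBS arrays as controls, whereas their description also names A-FABP. The arrays are called biological replicates, so p-values measure the spread between these cultures of a single cell line.

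In mitosis, microtubules of the spindle attach to chromosomes at kinetochores, protein assemblies built on centromeres. Kinesins move along or dismantle these microtubules, and the spindle checkpoint holds back the anaphase-promoting complex (APC/C) until all chromosomes are attached. Most of these genes are transcribed in G2 and mitosis, so in a culture their RNA level depends on both the share of dividing cells and the amount per cell. In bulk samples, more cells of a state and more RNA per cell cannot be told apart.

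Most of the genes lay slightly higher with A-FABP, by an amount close to the replicate spread, and the kinesins and kinetochore genes lay furthest from 0. Of the 48 genes, 42 had a positive difference (A-FABP minus PBS, log2 scale), against 47.6% of all genes. Their median difference was 0.12, with quartiles of 0.07 and 0.18, while the median of all 22180 genes was -0.01. In 33 of 48 genes both A-FABP arrays exceeded both controls, and in 1 both lay below, where all genes gave 26.0% and 27.5%. The medians by role were 0.19 for 10 kinesins, 0.15 for 11 kinetochore and centromere genes and 0.10 for 5 checkpoint genes. None of the genes passed the test: limma's adjusted p ran from 0.296 to 0.986, and 0 of 41345 probe sets (0%) had an adjusted p under 0.05, with 6258 (15.1%) under 0.05 before adjustment. At an unadjusted p under 0.05 there were 9 of 48 genes on the higher side and 0 on the lower side, against 4.81% and 8.24% of all genes. The 9 became 2 after cyclic loess, after repeated quantile normalization or with the level trend removed. These 2 are 4.17% of the 48, near the 4.41%, 3.67% and 4.46% of all genes under the same settings. After median centring there were 11 (22.9%), against 8.17% of all genes, and with probe sets under the median level left out there were 10. The 9 became 4 with the replicate block, 16 with a variance trend and robust settings, 1 without either A-FABP array, 3 without PBS control replicate 1 and 1 without PBS control replicate 2. With 2 arrays in each group, the smallest two-sided p of an exact permutation test is 0.33.

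**Figure D1:**
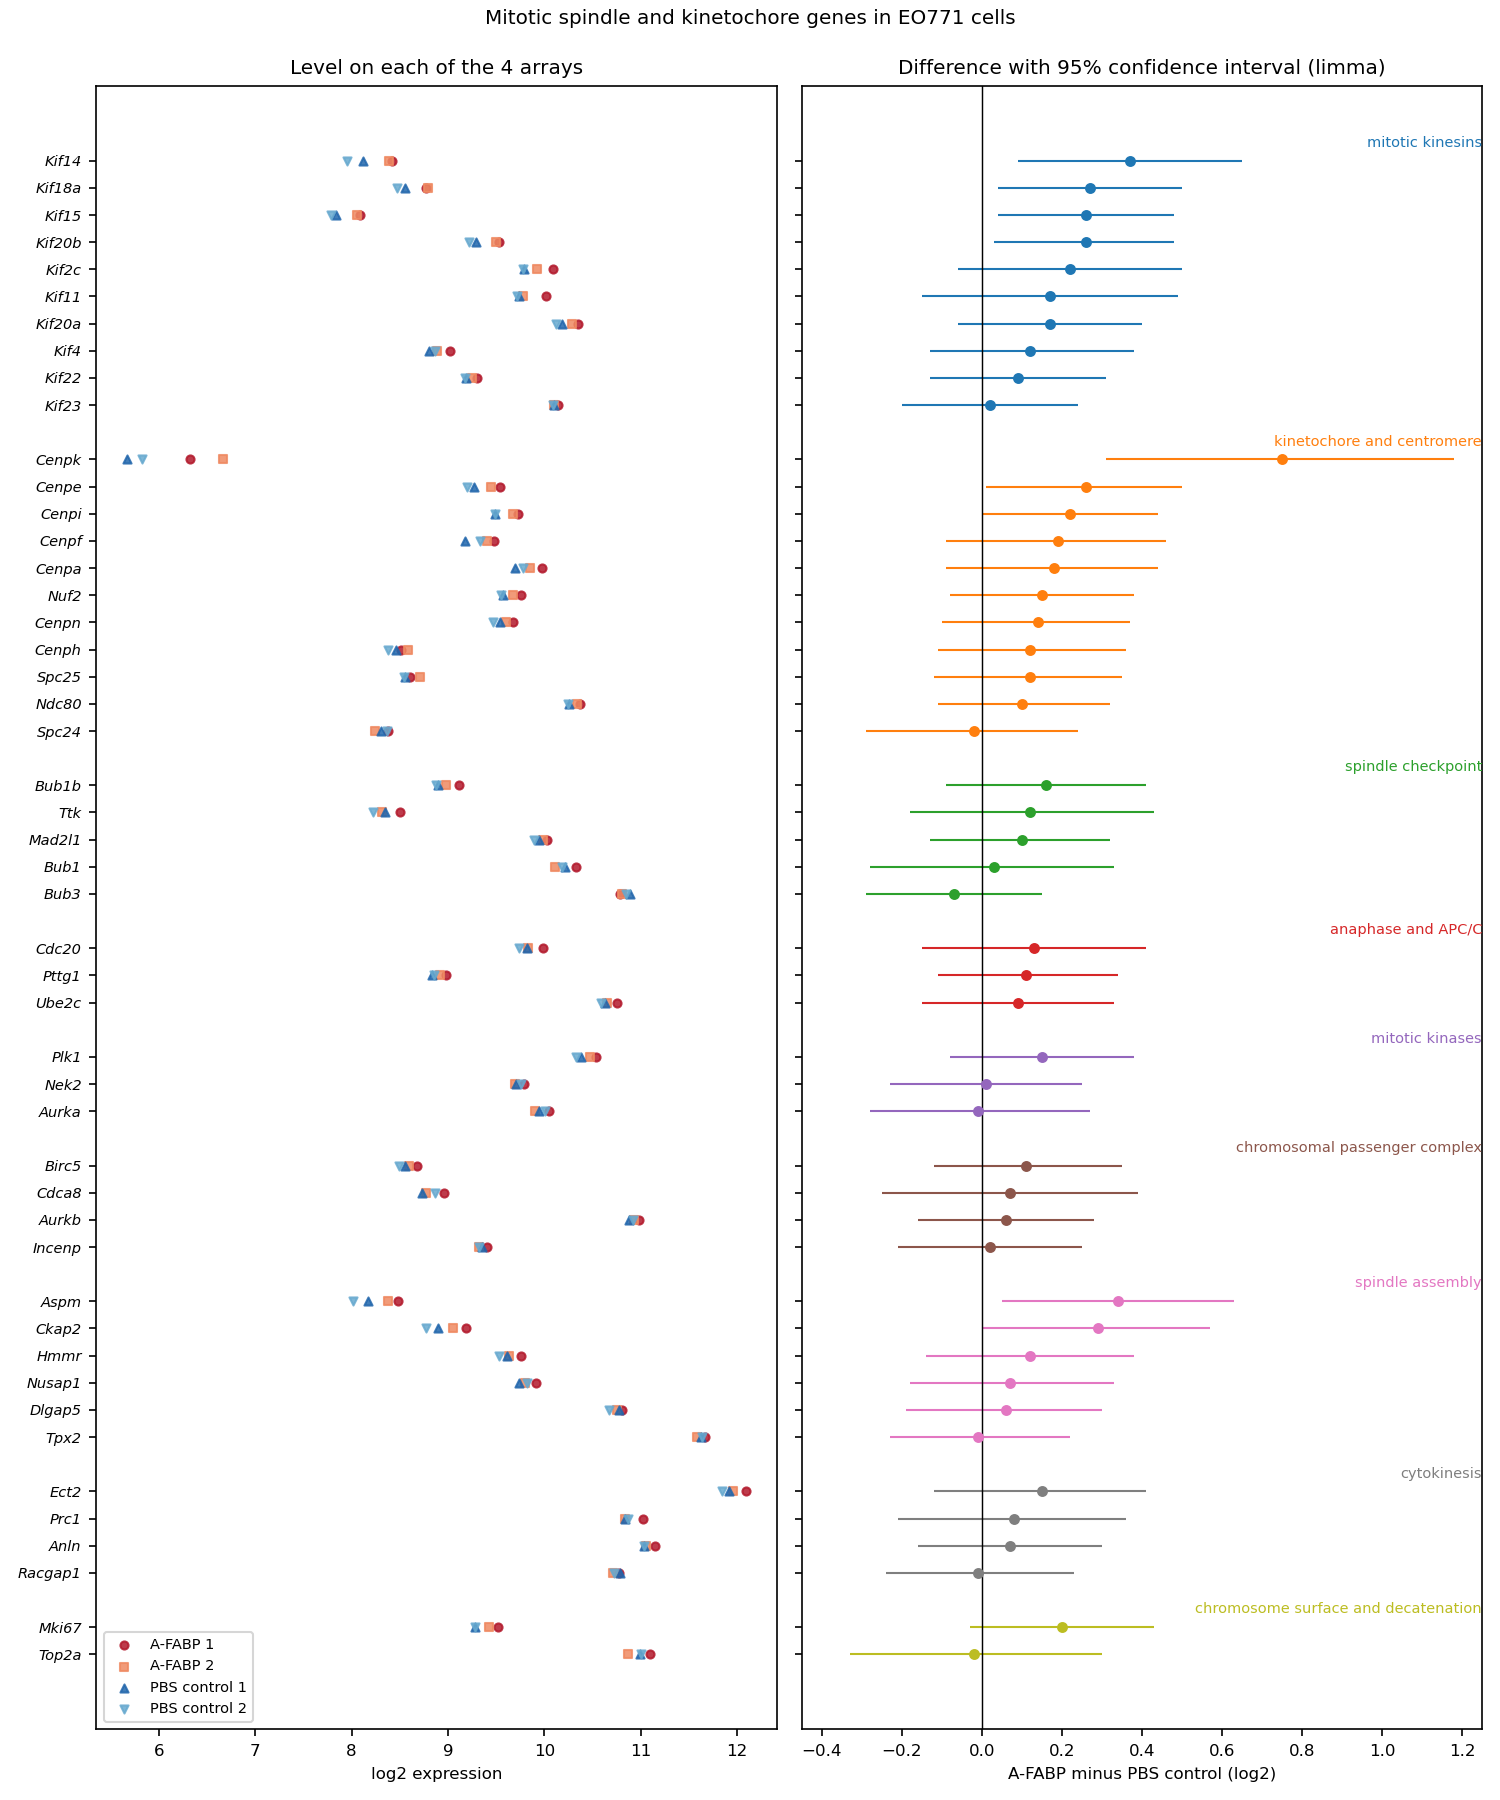
Left, log2 expression of each mitotic gene on the 4 arrays, with 1 symbol per array. Right, the difference A-FABP minus PBS (log2) with its 95% confidence interval from limma, genes grouped by role. The 10 kinesins all lie right of 0, and Cenpk, at 0.75, lies apart from the other genes.

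The size of these differences has to be read beside the level of a probe set. Genes in the log2 band from 8 to 12, which holds 46 of the 48, tended to be higher with A-FABP as a whole: 73.4% of 6715 had a positive difference and their median was 0.06. Among the 46 mitotic genes of that band, 40 were positive and the median was 0.12. From 8 to 9, the median was 0.12 for 13 mitotic genes and 0.09 for all genes of the band. It was 0.14 for 18 against 0.06 between 9 and 10, and 0.06 for 12 against 0.03 between 10 and 11. Bright probe sets thus lay closer to 0 among the mitotic genes as among all genes. In the 8 to 12 band, both A-FABP arrays exceeded both controls in 48.6% of all genes and in 31 of the 46. An unadjusted p under 0.05 was found on the higher side in 5.58% of the band and 7 of the 46, and on the lower side in 1.07% and 0. With the trend on mean level removed, the median was 0.06 over the 48 genes and 0.01 over the band, and 38 of 48 were positive where 49.1% of all genes and 53.8% of the band were. After median centring 47 of 48 (97.9%) were positive where 60.6% of all genes and 89.2% of the band were. After repeated quantile normalization it was 37 of 48 (77.1%) where 43.9% of all genes and 53.9% of the band were.

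**Figure D2:**
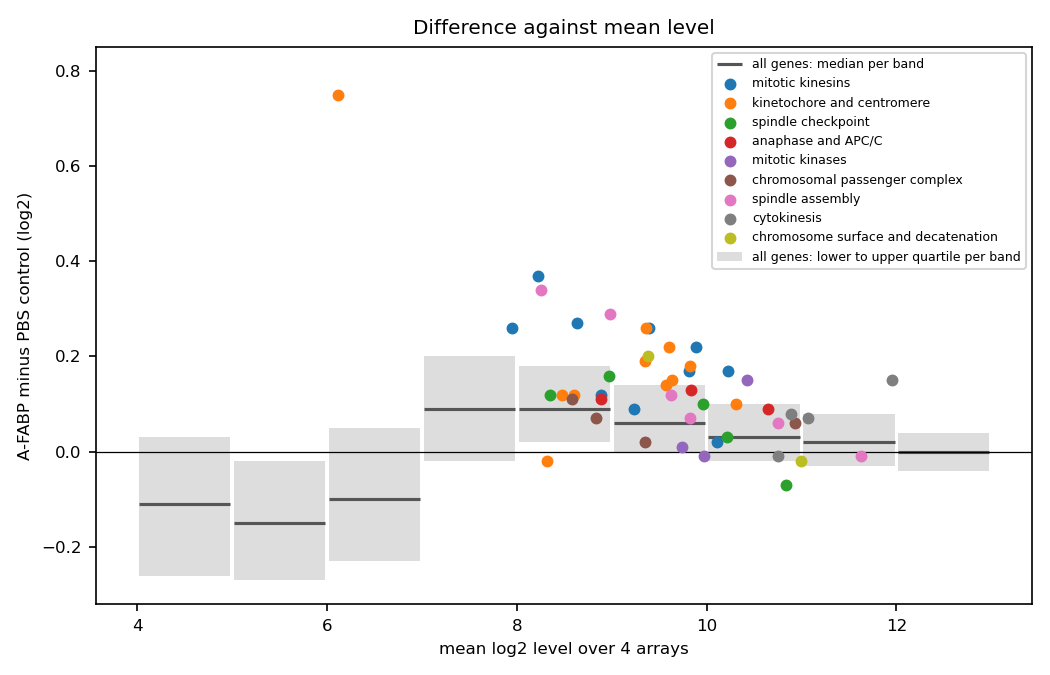
Difference A-FABP minus PBS (log2) against mean log2 level over 4 arrays. Points are the 48 mitotic genes coloured by role, grey boxes span the lower to upper quartile of all genes in each level band, and dark lines are the band medians, which run from -0.15 at 5 to 6 to 0.09 at 7 to 9.

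The arrays did not contribute equally. A-FABP replicate 1 was the highest of the 4 arrays in 42 of 48 mitotic genes (87.5%), whereas it was highest in 24.5% of all genes between 8 and 12, and A-FABP replicate 2 was highest in 3222 of those 6715. PBS control replicate 2 was the lowest array in 29 of 48 (60.4%), against 34.1% of the band. The median of the 48 genes lay at 9.76 and 9.67 on the A-FABP arrays and at 9.59 and 9.54 on the controls. Every A-FABP median was therefore above both control medians, but the step between the A-FABP arrays was of similar size to the step from A-FABP replicate 2 to the nearer control. Gene by gene, A-FABP replicate 1 exceeded A-FABP replicate 2 by a median of 0.09 and was higher in 43 of 48, where the 8 to 12 band had a median of -0.03. A-FABP replicate 1 exceeded the controls by 0.16 and 0.16, in 46 and 47 of 48 genes. A-FABP replicate 2 exceeded them by 0.06 and 0.09, in 35 and 36 of 48 genes, close to the band medians of 0.08 and 0.07. Without A-FABP replicate 1, 37 genes were positive and the median was 0.08. The kinesin median was then 0.14, the kinetochore median 0.15 and the checkpoint median 0.04. After each of the scalings tried, A-FABP replicate 1 was the highest array in 38 to 40 genes.

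**Figure D3:**
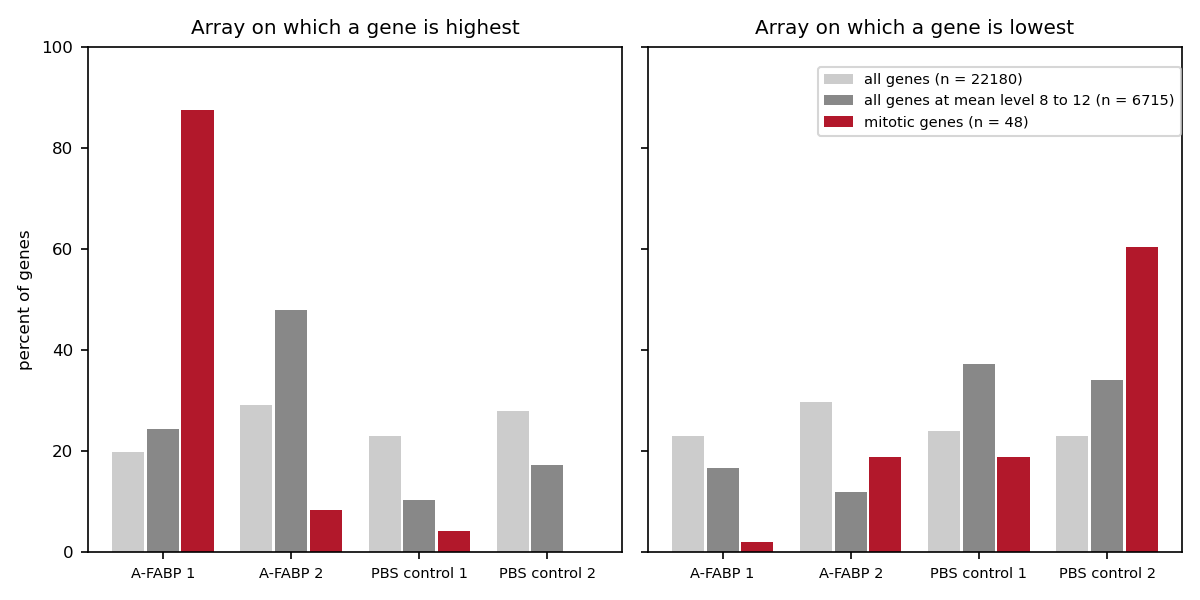
Percent of genes for which each array is the highest (left) or the lowest (right) of the 4, for all genes, all genes at mean level 8 to 12, and the mitotic genes. Mitotic genes are highest on A-FABP replicate 1 in 87.5% and lowest on PBS control replicate 2 in 60.4%.

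Many G2 and mitosis genes are known to share promoter elements, of which the cell cycle genes homology region (CHR) and the CCAAT box, bound by NF-Y, are the best studied. Promoters were taken from RefSeq (GRCm38.p6) for 42 of the 48 genes, in the 250 bases before each start. Those shown each have a start at the outermost annotated end of its gene and set genes with positive differences (Kif15, Cenpe, Kif11, Cdc20 and Ube2c) beside Racgap1, whose difference was -0.01. Capitals mark TTTGAA or its reverse complement TTCAAA (CHR), and CCAAT or its reverse complement ATTGG.
Kif15: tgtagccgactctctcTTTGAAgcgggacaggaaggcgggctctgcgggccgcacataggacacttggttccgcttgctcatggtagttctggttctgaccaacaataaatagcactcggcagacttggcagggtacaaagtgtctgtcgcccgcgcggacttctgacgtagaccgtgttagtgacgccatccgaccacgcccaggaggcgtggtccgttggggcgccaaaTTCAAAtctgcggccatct
Cenpe: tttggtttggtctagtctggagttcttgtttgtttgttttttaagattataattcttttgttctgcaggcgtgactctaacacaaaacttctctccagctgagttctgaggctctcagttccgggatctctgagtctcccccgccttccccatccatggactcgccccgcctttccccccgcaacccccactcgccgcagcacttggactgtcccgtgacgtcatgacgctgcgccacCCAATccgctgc
Kif11: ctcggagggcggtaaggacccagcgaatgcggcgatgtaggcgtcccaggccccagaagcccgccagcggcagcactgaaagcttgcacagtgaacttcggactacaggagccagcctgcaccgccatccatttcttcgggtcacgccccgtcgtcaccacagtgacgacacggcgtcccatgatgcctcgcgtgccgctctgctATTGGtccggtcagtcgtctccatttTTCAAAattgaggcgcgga
Cdc20: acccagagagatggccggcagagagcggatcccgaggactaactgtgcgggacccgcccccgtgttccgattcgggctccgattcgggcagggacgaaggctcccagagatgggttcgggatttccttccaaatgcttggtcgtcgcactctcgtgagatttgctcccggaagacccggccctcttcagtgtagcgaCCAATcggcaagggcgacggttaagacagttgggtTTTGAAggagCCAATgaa
Ube2c: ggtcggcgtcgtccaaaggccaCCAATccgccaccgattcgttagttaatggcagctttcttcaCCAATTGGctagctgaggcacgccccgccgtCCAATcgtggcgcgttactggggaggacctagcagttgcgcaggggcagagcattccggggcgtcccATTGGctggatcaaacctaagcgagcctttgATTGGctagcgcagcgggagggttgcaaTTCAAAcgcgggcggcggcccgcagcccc
Racgap1: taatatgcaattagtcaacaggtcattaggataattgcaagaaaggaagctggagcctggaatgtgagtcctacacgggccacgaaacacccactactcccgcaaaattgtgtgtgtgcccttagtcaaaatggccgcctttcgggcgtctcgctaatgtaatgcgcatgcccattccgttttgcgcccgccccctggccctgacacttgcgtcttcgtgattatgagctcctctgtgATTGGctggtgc
These are Kif15 at chr9:122950831-122951080 (+ strand), Cenpe at chr3:135212313-135212562 (+), Kif11 at chr19:37376132-37376381 (+), Cdc20 at chr4:118437344-118437593 (- strand), Ube2c at chr2:164769679-164769928 (+) and Racgap1 at chr15:99651657-99651906 (-). Each is written 5′ to 3′ on the strand of its gene and ends at the base before the start. Kif15, Kif11, Cdc20 and Ube2c hold CHR letters within 29 bases of the start, at 19, 19, 18 and 29 bases before it. Ube2c holds 6 CCAAT matches, of which an adjoining pair overlaps, while Cenpe and Racgap1 hold 1 each, both 12 bases before the start. Racgap1 does not stand for all genes with a negative difference. Of those not shown, Bub3 (-0.07) holds CHR letters 43 bases before a start and Top2a (-0.02) 23 bases before its start, both with CCAAT. Aurka (-0.01) holds CCAAT only.

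CCAAT on either strand was found in 34 of 47 promoters of these genes (72.3%) and in 33.8% of all 32851 promoters of the table. TTTGAA on either strand was in 16 of 47 (34.0%), against 16.0%, and the variant TTCGAA, a palindrome, in 2 of 47 against 1.34%. A promoter with CCAAT and either CHR form was found in 15 of 47 (31.9%), against 6.02% of all promoters. No test was made of the differences by motif. The 15 genes with either CHR form had a median difference of 0.15, from -0.07 to 0.37, and the 27 without one had 0.12, from -0.01 to 0.75. Both A-FABP arrays exceeded both controls in 12 of the 15 and 19 of the 27. Genes with and without CCAAT both had a median of 0.12, and the arrays were apart in this way in 19 of 29 with it and 12 of 13 without. The same order of arrays was found in 26.0% of all genes and in 48.6% of those at level 8 to 12. Matches may overlap one another and each promoter was counted once per motif. A match is a description of the sequence only. Dlgap5, Tpx2, Spc24, Aurkb, Kif20a and Incenp had no entry.

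All 10 mitotic kinesins had a positive difference, and 9 had both A-FABP arrays above both controls. The latter was found in 26.0% of all genes and in 48.6% of those at level 8 to 12. Kif14, a motor of the central spindle and midbody, lay at 8.42 and 8.39 with A-FABP and at 8.12 and 7.95 with PBS. Its groups did not overlap and the difference was 0.37 ± 0.10 (SE, 2 arrays per group), or 1.30-fold (limma adjusted p = 0.296, unadjusted 0.0207). Kif18a, which damps chromosome movements at the metaphase plate, lay at 8.77 and 8.79 against 8.55 and 8.47. Its difference was 0.27 ± 0.08, and A-FABP replicate 2 was its highest array. Kif15, a spindle motor that can act beside Kif11, lay at 8.09 and 8.06 against 7.84 and 7.79, a difference of 0.26 ± 0.08. In these 3 genes the A-FABP arrays lay close together and apart from the controls. Kif20b, which acts in cytokinesis, had the same difference of 0.26 ± 0.08. The other members ran lower.

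Kif11, the motor that pushes spindle poles apart, had a difference of 0.17 ± 0.11. Kif2c, a microtubule depolymerase of the centromere, had a difference of 0.22 ± 0.10, and both genes were highest on A-FABP replicate 1. Kif20a lay at 0.17, and the chromosome-arm motors Kif4 and Kif22 at 0.12 and 0.09. Kif23, the motor of the centralspindlin complex, was lowest of the kinesins. It lay at 10.14 and 10.10 against 10.10 and 10.09, with a difference of 0.02 (95% CI -0.20 to 0.24). Its arrays overlapped, and its difference was -0.03 under cyclic loess and -0.02 under repeated quantile normalization or removal of the level trend. With the level trend removed, the kinesin median was 0.15.

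Kinesins not counted as mitotic were listed for comparison. They are called transport kinesins here, although not all of them carry cargo. Of 20 transport kinesins, 11 lay above 0, the median was 0.04, and both A-FABP arrays were above both controls in 5 and below both in 4. No transport kinesin had an unadjusted p under 0.05. Kif7, a regulator of Hedgehog signalling in the cilium, was lower at 6.30 against 6.52 (-0.22 ± 0.11), and Kif26a lay at -0.17 ± 0.08. Both have a mean level between 6 and 7, where all genes had a median difference of -0.10 and a lower quartile of -0.23. With the level trend removed the median of the transport kinesins was -0.03, and the difference between the lists was not tested.

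Kinetochore and centromere genes lay above 0 in 10 of 11 cases, and both A-FABP arrays were above both controls in those 10. Such an order was found in 26.0% of all genes and in 48.6% of those at level 8 to 12. Cenpk, a subunit of the constitutive centromere network, lay at 6.32 and 6.66 with A-FABP and at 5.67 and 5.82 with PBS. The groups did not overlap, and the difference of 0.75 ± 0.15, or 1.68-fold, was the largest of the 48 and the only one of at least 1.5-fold (limma adjusted p = 0.296, unadjusted 0.00883). Its mean level of 6.12 lay in a band from 6 to 7 where all genes had a median difference of -0.10. Its highest array was A-FABP replicate 2, unlike most of the list. Its unadjusted p in limma was also under 0.05 after each scaling, with the filter, with the eBayes settings and with the replicate block. The probe set rule could not change it, since the gene has 1 probe set. Over all alternatives its difference ran from 0.57 without A-FABP replicate 2 to 0.92 without A-FABP replicate 1.

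Cenpe, the kinesin that links kinetochores to microtubules, lay at 9.54 and 9.45 with A-FABP and at 9.27 and 9.20 with PBS. The arrays did not overlap and the difference was 0.26 ± 0.09 (limma adjusted p = 0.320, unadjusted 0.0435). Cenpi, another subunit of the centromere network, lay at 9.73 and 9.68 against 9.49 and 9.49, a difference of 0.22 ± 0.08. Its controls were nearly identical and both A-FABP arrays were above them. Cenpf, a large kinetochore protein, had a difference of 0.19 ± 0.10 and Cenpa, the histone variant that marks centromeres, one of 0.18 ± 0.09. Cenpn lay at 0.14 and Cenph at 0.12.

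Within the NDC80 complex, which holds the microtubule end, the 4 subunits ran from -0.02 to 0.15. Nuf2 lay at 0.15, Spc25 at 0.12 and Ndc80 at 0.10. Spc24 lay at 8.38 and 8.24 with A-FABP and at 8.30 and 8.37 with PBS. Its groups overlapped, with a difference of -0.02 (95% CI -0.29 to 0.24), and its sign turned to 0.04 after median centring.

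Further kinetochore and centromere genes were listed by function. Of 24 measured genes, 23 lay above 0, the median was 0.17, and both A-FABP arrays were above both controls in 19 (79.2%). That share was 26.0% over all genes and 48.6% in the 8 to 12 band. At an unadjusted p under 0.05, 7 were higher and 1 lower. All genes gave 4.81% and 8.24%, and the band gave 5.58% and 1.07%. Cenpc1, which bridges centromere chromatin and the outer kinetochore, was at 9.04 against 8.53 (0.51 ± 0.10). Cenpq, of the same network as Cenpk, was at 8.54 against 8.13 (0.41 ± 0.08). Cenpm was the lower one, at 8.31 against 8.60 (-0.29 ± 0.08), and was named after its value was seen. The limma adjusted p was 0.296 for Cenpc1 and Cenpq and 0.302 for Cenpm.

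The spindle checkpoint genes lay closer to 0 and overlapped more often. Bub1b, which encodes the checkpoint protein BubR1, lay at 9.11 and 8.98 with A-FABP and at 8.90 and 8.88 with PBS. The groups were apart and the difference was 0.16 ± 0.09. Mad2l1, an inhibitor of Cdc20, lay at 10.03 and 9.99 against 9.94 and 9.89, a difference of 0.10 ± 0.08. Ttk, the kinase that starts checkpoint signalling, lay at 8.50 and 8.32 against 8.35 and 8.22. Its groups overlapped, with a difference of 0.12 ± 0.11. Bub1, a kinase at the kinetochore, lay at 0.03 with overlapping groups.

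Bub3, the scaffold that brings Bub1 and BubR1 to the kinetochore, ran the other way. It lay at 10.79 and 10.81 with A-FABP and at 10.89 and 10.85 with PBS, and was the only one of the 48 with both A-FABP arrays below both controls. The difference was -0.07 (95% CI -0.29 to 0.15). Checkpoint genes set against A-FABP replicate 2 alone had medians of -0.03 and 0.10 for the 2 controls, while kinesins had 0.12 and 0.16 and kinetochore genes 0.16 and 0.13. A difference between these roles was not tested.

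**Figure D4:**
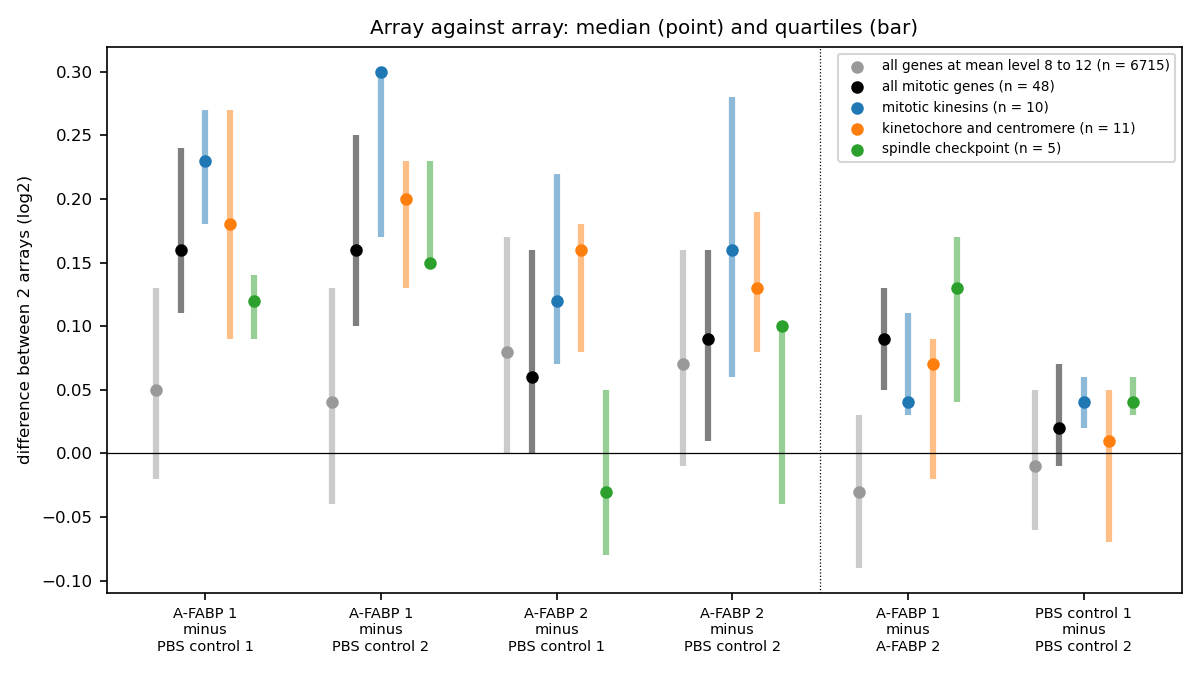
Difference between 2 arrays (log2) for each pair, as the median (point) and quartiles (bar) over genes of a set. Left of the dotted line are the 4 pairs of an A-FABP array and a control, and right of it the pairs within a group. Over all mitotic genes the median is 0.16 for A-FABP replicate 1 against each control, 0.06 and 0.09 for A-FABP replicate 2, and 0.09 between the A-FABP arrays.

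The anaphase and APC/C genes were all slightly higher, with no overlap between groups in 3 of 3. Both A-FABP arrays exceeded both controls in 48.6% of all genes at level 8 to 12. Cdc20, an activator of the APC/C, lay at 9.99 and 9.83 with A-FABP and at 9.82 and 9.74 with PBS, a difference of 0.13 ± 0.10. Ube2c, a ubiquitin-conjugating enzyme of the APC/C, lay at 10.75 and 10.65 against 10.63 and 10.59 (0.09 ± 0.08). Pttg1, which encodes securin, lay at 8.98 and 8.92 against 8.83 and 8.85 (0.11 ± 0.08). The gaps between groups were as small as 0.01 for Cdc20. Of 17 other APC/C genes, 12 lay above 0 with a median of 0.07. Anapc15 alone had an unadjusted p under 0.05, at 7.11 against 6.70 (0.41 ± 0.12), where 4.81% of all genes were higher at that threshold.

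Among the mitotic kinases, Plk1, which acts from mitotic entry to cytokinesis, lay at 10.54 and 10.47 with A-FABP and at 10.38 and 10.33 with PBS. Its groups did not overlap and the difference was 0.15 ± 0.08. Aurka, the kinase of spindle poles, lay at 10.05 and 9.90 against 9.94 and 10.01, a difference of -0.01 (95% CI -0.28 to 0.27). Nek2, a centrosome kinase, lay at 9.79 and 9.70 against 9.71 and 9.76 (0.01, 95% CI -0.23 to 0.25). In both, the A-FABP arrays enclosed the controls, and the sign depended on the setting.

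The chromosomal passenger complex corrects faulty attachments and had differences from 0.02 to 0.11. Aurkb, its kinase, lay at 10.98 and 10.93 with A-FABP and at 10.88 and 10.92 with PBS (0.06 ± 0.08). Birc5, which encodes survivin, lay at 8.68 and 8.60 against 8.55 and 8.49 (0.11 ± 0.08). In these genes the groups were apart, though by less than the SE. Cdca8, which encodes borealin, lay at 8.96 and 8.77 against 8.73 and 8.86 (0.07 ± 0.11), and Incenp, the scaffold, at 9.41 and 9.32 against 9.35 and 9.32 (0.02 ± 0.08). Both overlapped.

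Spindle assembly genes comprised Aspm and Ckap2, with larger differences, and 4 genes between -0.01 and 0.12. Aspm, which focuses microtubules at spindle poles, lay at 8.48 and 8.38 with A-FABP and at 8.17 and 8.01 with PBS. Its groups were clearly apart, with a difference of 0.34 ± 0.10, or 1.27-fold (limma adjusted p = 0.304, unadjusted 0.0303). Ckap2, a microtubule stabiliser, lay at 9.19 and 9.05 against 8.90 and 8.77, a difference of 0.29 ± 0.10 (adjusted p = 0.326). Neither had an unadjusted p under 0.05 after cyclic loess, repeated quantile normalization or removal of the level trend. With 1 array left out, Ckap2 had none under 0.05 and Aspm had one only without PBS control replicate 1, while with the replicate block the p was 0.0311 for Aspm and 0.0444 for Ckap2. Hmmr, a spindle protein that also binds hyaluronan, lay at 9.76 and 9.63 against 9.61 and 9.53 (0.12 ± 0.09). Tpx2, which activates Aurora A, lay at 11.67 and 11.59 against 11.63 and 11.64, with a difference of -0.01 (95% CI -0.23 to 0.22) and overlapping groups. Nusap1 and Dlgap5, both microtubule-binding proteins, lay at 0.07 and 0.06 and overlapped as well.

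Cytokinesis genes had differences from -0.01 to 0.15. Ect2, the exchange factor that activates RhoA at the cleavage furrow, lay at 12.09 and 11.96 with A-FABP and at 11.92 and 11.84 with PBS (0.15 ± 0.09). Its groups were apart, and the difference was 0.14 with the level trend removed. Anln, which encodes the furrow scaffold anillin, lay at 11.15 and 11.06 against 11.04 and 11.04 (0.07 ± 0.08). Prc1, which bundles central spindle microtubules, lay at 11.02 and 10.84 against 10.84 and 10.87 (0.08 ± 0.10), and was high on A-FABP replicate 1 only. Racgap1, the partner of Kif23 in centralspindlin, lay at 10.78 and 10.71 against 10.79 and 10.72, a difference of -0.01 (95% CI -0.24 to 0.23). Both subunits of centralspindlin thus had overlapping arrays and differences within 0.02 of 0.

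Mki67 and Top2a, both common proliferation markers, were given apart from the other roles. Mki67, which encodes the chromosome surface protein Ki-67, lay at 9.52 and 9.43 with A-FABP and at 9.28 and 9.28 with PBS. Its groups did not overlap, with a difference of 0.20 ± 0.08 (limma adjusted p = 0.364, unadjusted 0.0750). Top2a, the topoisomerase that separates sister DNA, lay at 11.10 and 10.87 against 10.99 and 11.00. The A-FABP arrays lay on either side of the controls and the difference was -0.02 (95% CI -0.33 to 0.30).

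Other mitotic and cell cycle genes, listed by function, gave a median of 0.10 over 18 cohesin and condensin genes (16 above 0), 0.06 over 19 mitotic entry regulators (17 above 0) and 0.13 over 17 centrosome genes (16 above 0). None of the cohesin, condensin or mitotic entry genes had an unadjusted p under 0.05. The leading ones were Stag2, a cohesin subunit (0.24 ± 0.09), Stag1 (0.23 ± 0.09), Melk, a kinase (0.19 ± 0.08), and Bora, an activator of Aurora A (0.19 ± 0.09). Of the centrosome genes, Cenpj (0.28 ± 0.10), Cep192 (0.23 ± 0.08) and Sass6 (0.23 ± 0.08) did, all higher. Of 34 DNA replication genes, 31 lay above 0 and the median was 0.06. Only Rpa3 among them had an unadjusted p under 0.05 (0.29 ± 0.08), and Pole2 was next (0.21 ± 0.08). Their median was 0.02 with the level trend removed, against 0.06 for the 48 mitotic genes. Cyclin-dependent kinase inhibitors had 3 of 8 above 0 and a median of -0.09. Cdkn1c, at 6.33 against 6.59 (-0.25 ± 0.08), Cdkn2b, at 6.78 against 7.07 (-0.29 ± 0.10), and Cdkn2a (-0.37 ± 0.13) were lower at an unadjusted p under 0.05, and Cdkn3, a phosphatase, was higher (0.24 ± 0.08). Over all genes, an unadjusted p under 0.05 was found in 4.81% on the higher side and 8.24% on the lower side. The limma adjusted p of all genes in this paragraph was 0.302 or more, and differences between lists were not tested.

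The arrays correlated at r = 0.9906 and 0.9914 within groups and at 0.9853 to 0.9889 between groups over all probe sets. Of the epithelial markers, Krt8 lay at 8.74 to 8.85, while Epcam lay at 4.45 to 5.05 and Cdh1 at 6.20 to 6.39, near or below the gene medians of 6.26 to 6.40 per array, so most defining epithelial markers were dim in this carcinoma line. Some markers of other cell types were bright. Of the fibroblast markers, Pdgfra lay at 11.16 to 11.22, Pdgfrb at 9.67 to 9.88 and Col3a1 at 9.58 to 9.72. The other fibroblast markers did not exceed 6.89 on any array, and the median level of all 10 was 6.18. Of the macrophage and leukocyte markers, Cd68 lay at 12.70 to 12.84 and Cd14 at 7.05 to 7.49, while Ptprc, the pan-leukocyte marker, lay at 4.58 or less on every array. Of the adipocyte markers, Adipoq lay at 4.97 to 5.42 and Lipe at 7.43 to 7.69, and the median level of all 7 was 5.43. Macrophage and leukocyte markers had a median difference of -0.21, with 8 of 11 below 0, at a median level of 5.57. All genes at level 5 to 6 had a median of -0.15, with 21.8% above 0. With the level trend removed the median of these markers was -0.12. Fibroblast markers had 6 of 10 above 0, endothelial markers 3 of 8, adipocyte markers 3 of 7 and epithelial markers 3 of 10. Their part in the values of the mitotic genes was not tested.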

How the data were processed

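RNA of 4 EO771 cultures was labelled with biotin and hybridised to single-colour arrays. The authors deposited log2 values for each probe set, made with RMA and Partek 6.6 per the submitters' processing notes. Differences spread more widely among dim genes, with quartiles of -0.26 and 0.03 at mean level 4 to 5, against -0.03 and 0.08 at 11 to 12. The array design is not given in the labels. The platform annotation named 1 gene for 23521 of 41345 probe sets, several for 1814 and none for 16010. A gene is represented by its brightest probe set (each of the 48 has 1), giving 22180 genes.

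Differences were fitted with limma 3.58.1 in R 4.3.3 (lmFit, eBayes, group only; 2 residual and 1.91 prior degrees of freedom) over all 41345 probe sets, two-sided, with Benjamini-Hochberg adjustment and a threshold of 0.05. SE and 95% intervals come from this fit, which was tested on simulated data. The number of arrays limits precision. Alternatives changed the scaling, the level trend (loess, span 0.3), the filter, the eBayes settings, the replicate block, the probe set rule and each array. For the 48 genes, each with 1 probe set, the probe set rule repeats the main fit. The filter, the eBayes settings and the replicate block cannot change a difference. Counts of arrays that do not overlap and of the highest array were checked under alternatives chosen after seeing the data.

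Members and lists were chosen with earlier results of these data known. List symbols not in the annotation were matched through unique RefSeq synonyms. Values by array are given for up to 3 genes per role with the lowest p and the gene with the lowest difference, and group means or differences for up to 2 genes per other list. Further genes of those lists were named after their values were seen. Promoters are RefSeq's, GRCm38.p6.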

Additional observations from a re-analysis of the deposited data

How the results depend on the processing

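No probe set had an adjusted p under 0.05 in any of the 12 alternatives, and 0 of the 48 genes were lower at an unadjusted p under 0.05 in any. The median difference of 0.12 was 0.19 after median centring, and 0.06 after cyclic loess, repeated quantile normalization or removal of the level trend. The kinesin median of 0.19 was 0.26, 0.14, 0.15 and 0.15 in that order, and the checkpoint median of 0.10 was 0.16, 0.04, 0.05 and 0.05. The kinetochore median of 0.15 was 0.22 after median centring and 0.09 after cyclic loess. The 33 genes with groups apart and higher became 18, 20 and 18 after cyclic loess, repeated quantile normalization and removal of the trend. These are 37.5%, 41.7% and 37.5% of the 48, against 29.0%, 29.6% and 29.7% of genes at level 8 to 12 and 23.2%, 20.6% and 23.4% of all genes. After median centring the 33 became 42 (87.5%), against 70.7% of genes at level 8 to 12 and 38.2% of all genes. The 9 genes at an unadjusted p under 0.05 became 2 after cyclic loess, repeated quantile normalization or removal of the trend. They became 11 after median centring, 10 with the filter and 16 with a variance trend and robust settings. Under the scalings with 2, these were Cenpk and Kif14. The replicate block gave 4. Over all probe sets, the deviations of same-numbered arrays correlated at -0.00889. Among the 48 genes, replicate 1 exceeded replicate 2 in 43 with A-FABP and in 33 with PBS. Whether same-numbered arrays were handled together was not tested. With an array left out, the overall median ran from 0.08 to 0.17, the kinesin median from 0.14 to 0.27, the kinetochore median from 0.14 to 0.20, the checkpoint median from 0.04 to 0.14, the genes with groups apart from 33 to 46, and the genes at an unadjusted p under 0.05 from 1 to 3. In those fits a lone array is assumed to vary like the other group. Leaving an array out only removes conditions, so the count of genes with groups apart and higher could not fall below 33. Its range therefore does not test whether that count is stable.

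Of 32 genes named with values by array, 22 kept their sign throughout and 10 near 0 did not. Only the scalings and the arrays left out could change a sign. After median centring, Spc24 lay at 0.04, Aurka, Tpx2 and Racgap1 at 0.06 and Top2a at 0.05. After cyclic loess, Kif23 lay at -0.03, and Nek2 and Incenp at -0.04. After repeated quantile normalization, Kif23 lay at -0.02, Nek2 at -0.04, Cdca8 at -0.01 and Incenp at -0.03. With the trend removed, Kif23 lay at -0.02, and Nek2 and Incenp at -0.04. Without A-FABP replicate 1, Spc24 lay at -0.09, Aurka at -0.08, Tpx2 at -0.05, Top2a at -0.13, Nek2 at -0.04, and Cdca8, Incenp and Prc1 at -0.02. Without A-FABP replicate 2, Spc24 lay at 0.05, Aurka at 0.07, Tpx2 and Racgap1 at 0.03 and Top2a at 0.10. Without PBS control replicate 1, Nek2 lay at -0.02 and Racgap1 at 0.03. Without PBS control replicate 2, Spc24 lay at 0.01 and Aurka at 0.03. The causes were not tested.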
